A study of Rattus norvegicus with 180 samples.

Results

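Cervical, pectoral and lumbar spinal cord were compared within the same rats for every miRNA on the array. The comparison rests on 9 of the 180 arrays of the series, which were those whose titles name a spinal cord level in perfused rats 4, 5 and 6, with 3 arrays at each level. The animals were male Sprague-Dawley rats, 10 weeks old and without any treatment, and saline had been perfused under ether to clear blood from the organs. The level named pectoral is the thoracic cord, and the lumbar level is titled pars lumbalis. RNA of whole pieces of cord was labelled with cyanine 3 and hybridized to a custom rat miRNA array. Each value below is a normalized signal, in arbitrary units, from a single array. Signals under the floor of 10.8 units were set to that floor and have no order among themselves. The floor is the median, over the 180 arrays, of the dimmest signal that the scanner software called above background. That dimmest signal was 5.51 to 10.2 on 8 of the cord arrays and 14.8 on the pectoral array of rat 6, so some signals called above background were set to the floor too. Differences were taken as the more caudal level minus the more rostral level on the log2 scale.

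HOX genes give each part of the body axis its identity, and they lie in the genome in the order in which they are used from head to tail. Several miRNA genes sit inside these clusters. miR-10a and miR-10b lie beside genes used from the hindbrain backwards. The miR-196 family lies beside genes of more caudal groups and is known to repress some HOX genes. The cord as a whole is rich in myelin, and miR-219 and miR-338 are needed for oligodendrocytes, the myelinating cells, to mature.

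The mature sequences of the HOX cluster miRNAs that gave a signal in the cord are shown to make clear how alike the family members are. They were taken from RefSeq for the assembly GRCr8 and are written 5′ to 3′, with the seed, bases 2 to 8, in capitals.
miR-196a-5p: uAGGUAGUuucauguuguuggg
miR-196b-5p: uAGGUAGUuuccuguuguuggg
miR-196c-5p: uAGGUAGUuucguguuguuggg
miR-10a-5p: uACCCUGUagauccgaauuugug
miR-10b-5p: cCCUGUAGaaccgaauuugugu
The 3 miR-196 sequences share their seed and differ at a single base. Counted from the 5′ end of miR-196a, that base is A12C in miR-196b and A12G in miR-196c. The RefSeq sequence of miR-10b starts 2 bases later than that of miR-10a, so that bases 2 to 8 differ, and within the shared stretch the sequences differ by U12A, counted from the 5′ end of miR-10a. In GRCr8, miR-196a lies at chr7:135988900-135988921 on the plus strand between Hoxc10 and Hoxc9, and miR-196b at chr4:82661149-82661170 on the minus strand between Hoxa9 and Hoxa10. miR-196c lies at chr10:81727561-81727582 on the plus strand between Hoxb13 and Hoxb9, and miR-10a at chr10:81779730-81779752 on the same strand between Hoxb5 and Hoxb4. miR-10b lies at chr3:80035886-80035907 on the plus strand within the span of Hoxd4. Probes for such close relatives can bind each other's miRNA, and how far the signals of miR-196a, miR-196b and miR-196c are separate was not tested.

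The miRNAs that mark oligodendrocytes are shown next, because they are the check of the tissue label.
miR-219a-2-3p: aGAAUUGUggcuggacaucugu
miR-219a-5p: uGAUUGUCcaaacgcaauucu
miR-338-3p: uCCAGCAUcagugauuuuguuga
The array names them miR-219-2-3p, miR-219-5p and miR-338. No seed is shared among these 3 sequences or with the HOX cluster miRNAs.

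The next set, typical of connective tissue and blood, is shown because its members had lower signals in cervical cord than at both other levels in every rat.
miR-214-3p: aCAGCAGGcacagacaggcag
miR-199a-5p: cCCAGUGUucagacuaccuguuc
miR-451-5p: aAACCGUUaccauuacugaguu
miR-223-3p: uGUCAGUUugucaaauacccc
miR-214 and miR-199a lie near each other within the span of Dnm3 on chromosome 13, where they are known to be made from a shared transcript.

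Each rat's 3 cord arrays were hybridized on 1 slide, so rat and slide cannot be told apart, and the slide of rat 6 was scanned on another day than the other two. Pectoral arrays were always in the second row of a slide and the other levels in the first row, so the pectoral level and that position cannot be told apart either. Within the first row, cervical arrays were in columns 3, 2 and 2 and lumbar arrays in columns 4, 3 and 3 for rats 4, 5 and 6. Lumbar and cervical cord thus also differ in position on every slide, and level and position cannot be told apart there. The 3 cord arrays titled rat 5 carry animal 6 in their source name. They are among 8 such arrays of the series, which include medulla oblongata and femoris muscle. All were treated as rat 5, so the count of 3 rats rests on the titles. None of the cord signals above the floor was identical to that of the matching rat 6 array. The arrays are thus not copies, but this cannot tell which animal they came from. Between 179 and 238 miRNAs were detected per array, 163 on all 9 arrays and 263 on at least 1. A miRNA was tested if every rat had it detected at the same level, for whichever level, which left 193. Each level was measured once per rat. The p-values of the reported fit set a level difference against how far such differences, array noise included, varied between these 3 rats. That spread was partly pooled over the tested miRNAs, and the rat term took out the spread between the rats themselves. The 3 pairs of levels share their arrays and are not independent of each other.

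The arrays held miRNAs of central nervous tissue, although the lumbar array of rat 4 departed from the others, as described below. miR-219-2-3p, miR-219-5p and miR-338, and the neuronal miRNAs miR-124 and miR-9, were detected on all 9 arrays. The liver miRNA miR-122 and the epithelial miRNAs miR-200a and miR-200b were at the floor on all 9, and of the 7 listed epithelial miRNAs 1 was detected on any cord array and 0 were tested. The 10 miRNAs with the highest mean signals over the cord arrays were miR-125b-5p, let-7a, let-7c, let-7f, miR-338, let-7b, miR-23b, miR-9*, miR-29b and miR-29a, although signals of different probes do not rank amounts. miR-125b-5p had signals between 6822 and 8458. None of the 10 passed the adjusted test. Their largest difference between a pair of levels was -0.58 on the log2 scale, for miR-9* between lumbar and cervical cord, and it was -0.0036 without the lumbar array of rat 4, where the largest was 0.32, for let-7f between lumbar and pectoral cord. Without the pectoral array of rat 6 the largest was -0.64, for miR-9* between lumbar and pectoral cord. Over the 55 organs of the perfused rats, and with the scaling used here, the 3 cord levels held the 3 highest mean signals of miR-338. With the same scaling, cervical and pectoral cord held the 2 highest of miR-219-2-3p.

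A pair of arrays stood apart from the rest. The lumbar array of rat 4 had a median correlation of 0.894 with the other cord arrays over the tested miRNAs, and the pectoral array of rat 6 one of 0.946. The other 7 lay between 0.959 and 0.981. On the lumbar array of rat 4 the central nervous system miRNAs were low, with miR-124 at 653 against 1574 to 2635 on the other 8 arrays. Its correlation with the mean ischial nerve profile was 0.903, where the other cord arrays had 0.698 to 0.797. It was also the highest of the 9 with bone marrow, 0.665 against 0.404 to 0.528, with gastrocnemial muscle, 0.741 against 0.532 to 0.661, and with optic nerve, 0.885 against 0.832 to 0.879. Its correlation with medulla oblongata was 0.819, where the others had 0.903 to 0.964. The pectoral array of rat 6 detected the fewest miRNAs and gave signals of 3859 for miR-1224 and 2118 for miR-494_v15.0, against at most 179 and 189.8 on the others. That 2118 equals the value to which the percentile of every array was scaled. The scaling of this array thus rested on miR-494_v15.0, and its printed signal was set by the scaling. Some differences below are also given without these arrays, a choice made after the data were seen.

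**Figure D1:**
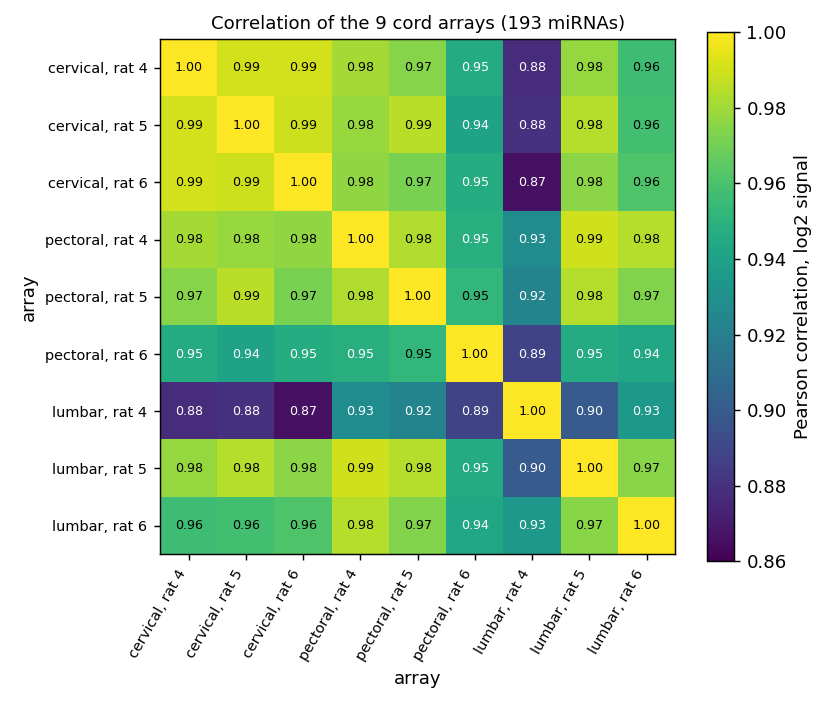
Pearson correlation of log2 signals between the 9 cord arrays over the 193 tested miRNAs, from 0.866 (dark) to 1 (light), with rows and columns ordered by level and rat. The row of the lumbar array of rat 4 is the darkest, the pectoral array of rat 6 comes next, and the 3 cervical arrays are the most alike.

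No miRNA passed an adjusted p of 0.05 between any pair of levels. The call came from limma with the rat as a fixed block and Benjamini-Hochberg adjustment over the 193 miRNAs, and 0 were called (0%) in each of the 3 pairs and in the F test over the 3 levels. At an unadjusted p under 0.05 there were 6 (3.11%) between cervical and pectoral cord, 6 (3.11%) between pectoral and lumbar cord, 15 (7.77%) between cervical and lumbar cord and 8 (4.15%) in the F test. The F test gave its lowest adjusted p, 0.181, to miR-196a. The calls depended on single arrays. Without the lumbar array of rat 4, 2 miRNAs were called between cervical and pectoral cord, 0 between pectoral and lumbar cord and 2 between cervical and lumbar cord. Without rat 4 altogether the counts were 1, 2 and 2, and without rat 5 they were 0, 0 and 2. The median difference over all 193 miRNAs was -0.09 from cervical to pectoral, -0.12 from pectoral to lumbar and -0.19 from cervical to lumbar. The 95% interval of the difference lay wholly within 1 log2 unit of 0 for 132, 119 and 98 of the 193 miRNAs in the same order, and for the remaining ones it reached past a 2-fold difference. Against the mean of cervical and lumbar cord, the levels with the limb enlargements, pectoral cord also gave 0 calls (0%), and 1 miRNA (0.518%), miR-100, had an unadjusted p under 0.05.

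**Figure D2:**
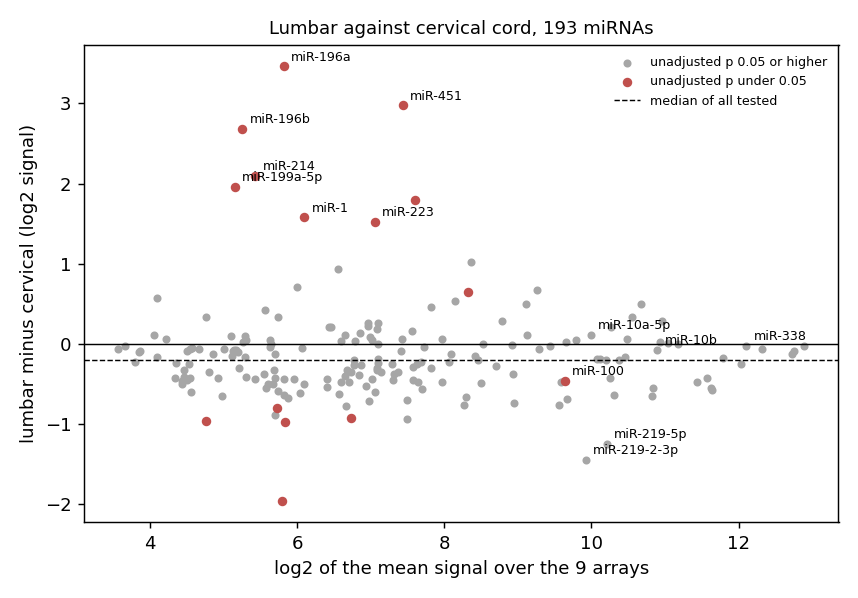
Difference between lumbar and cervical cord (log2 signal, limma estimate) against the log2 of the mean signal over the 9 arrays, with 1 point for each of the 193 tested miRNAs. Points in red had an unadjusted p under 0.05, and the dashed line is the median of -0.19. miR-196a is the highest point at 3.46, while miR-10a-5p, miR-10b and miR-338 lie near 0.

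The HOX cluster miRNAs fell into 2 patterns along the cord. miR-10a and miR-10b were bright at every level with little difference between the level means. miR-196a and miR-196b were not detected in cervical cord and had their highest mean signals in lumbar cord. Of the 11 HOX cluster miRNAs listed, 6 were detected on some cord array and 4 were tested. Of these, miR-196a and miR-196b were tested only because lumbar cord, where they are high, had them detected on all 3 arrays, so no median over the 4 is given. That selection also bears on the p-values of both between lumbar cord and the other levels, which are given as a description of the fit. None of the 4 was called in any pair.

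miR-196a was at the floor of 10.8 in cervical cord of all 3 rats. In pectoral cord it had signals of 83.4, 16.2 and 15.8 in rats 4, 5 and 6, and in lumbar cord 136, 105 and 119. The 3 levels did not overlap, and the pectoral signal of rat 4 lay between those of the other rats and the lumbar signals. The scanner software called miR-196a above background on no cervical array, on the pectoral arrays of rats 4 and 5, and on all 3 lumbar arrays. Lumbar signal was 120.05 ± 15.5 (SD, n = 3), at least 11.0-fold higher than cervical signal, which was at the floor.

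In limma, miR-196a differed by 3.46 ± 0.50 (SE) between lumbar and cervical cord, with an unadjusted p of 0.000309 and an adjusted p of 0.0596, which did not pass. Counted from the floor, and so as a lower bound, it was 3.65, 3.28 and 3.46 in rats 4, 5 and 6, higher in 3 of 3 rats. Between pectoral and cervical cord it was 1.36 ± 0.50 (adjusted p = 0.966), with 2.94 in rat 4 and 0.58 and 0.54 in rats 5 and 6. Between lumbar and pectoral cord it was 2.11 ± 0.50 (adjusted p = 0.765), with 0.71 in rat 4 and 2.70 and 2.91 in rats 5 and 6. The cervical signals were at the floor and the pectoral signal of rat 6 was not called above background, so the size of the difference between these levels depends on the floor, and it was not set against that from pectoral to lumbar cord.

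Only miR-196a, 1 of the 193 miRNAs (0.518%), had a higher signal at each more caudal level in every rat, and 5 (2.59%) had a lower one. The exact permutation test of the level labels within rats gave miR-196a the smallest p its arrangements can give, 0.0278, or 0.67 after Benjamini-Hochberg adjustment over the 193 miRNAs. An exact test of a single pair over 3 rats cannot go below 0.25. Since miR-196a was tested only through its lumbar signals, the permutation p, the count of rising miRNAs and the fits that follow are descriptions. Without the lumbar array of rat 4 the lumbar minus cervical difference was 3.76, with an adjusted p of 0.0401 in limma. Without the pectoral array of rat 6 it was 3.46 with an adjusted p of 0.159, and without both arrays 3.68 with 0.0575. Without rat 4 it was 3.37 with 0.000324, without rat 5 3.55 with 0.118 and without rat 6 3.46 with 0.702. Without the rat block its adjusted p was 0.033, and it was the only miRNA called in that fit.

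miR-196b had the same order of means as miR-196a. It was at the floor in cervical cord of all rats. Signals in pectoral cord were 70.2, 13.6 and 17.7 in rats 4, 5 and 6, and in lumbar cord 66.5, 79.4 and 64.2. Pectoral and lumbar cord overlapped, since rat 4 had a slightly higher signal in pectoral than in lumbar cord. Lumbar signal was 70.04 ± 8.19 (SD, n = 3), at least 6.44-fold higher than in cervical cord. The fitted lumbar minus cervical difference was 2.69 ± 0.51 (SE, adjusted p = 0.134 in limma). It was 3.08 (adjusted p = 0.0552) without the lumbar array of rat 4, and 2.72 (adjusted p = 0.00233) without any array of rat 4.

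miR-196c was too dim to be tested. It was at the floor in cervical cord, at most 11.3 in pectoral cord, and 14.8, 20.6 and 15.3 in lumbar cord of rats 4, 5 and 6, where only the array of rat 5 called it above background. The passenger strands miR-196a*, miR-196b* and miR-196c*, together with miR-10a-3p and miR-615, which lies within Hoxc5, were at the floor on all 9 arrays. miR-10b* was called above background on 2 arrays, the pectoral and the lumbar array of rat 5, and reached 17.2 at most.

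miR-10a-5p and miR-10b were detected on all 9 arrays. miR-10a-5p was 907, 1148 and 952 in cervical cord, 1093, 1133 and 688 in pectoral cord, and 933, 1250 and 1082 in lumbar cord of rats 4, 5 and 6. The levels overlapped, and the lowest signal was on the pectoral array of rat 6. Its lumbar minus cervical difference was 0.12, with a 95% interval from -0.38 to 0.61 (adjusted p = 0.791 in limma), and it was 0.24 without the lumbar array of rat 4.

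miR-10b was 1565, 2188 and 1975 in cervical cord, 2192, 1866 and 1477 in pectoral cord, and 989, 2647 and 2230 in lumbar cord. The lowest of these was the lumbar array of rat 4 and the highest the lumbar array of rat 5, so the lumbar level held both ends of the range. Its lumbar minus cervical difference was -0.07, with a 95% interval from -0.90 to 0.75 (adjusted p = 0.91 in limma), and its sign turned to 0.36 without the lumbar array of rat 4. For both miR-10 miRNAs the interval between lumbar and cervical cord lay within a 2-fold difference in either direction.

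**Figure D3:**
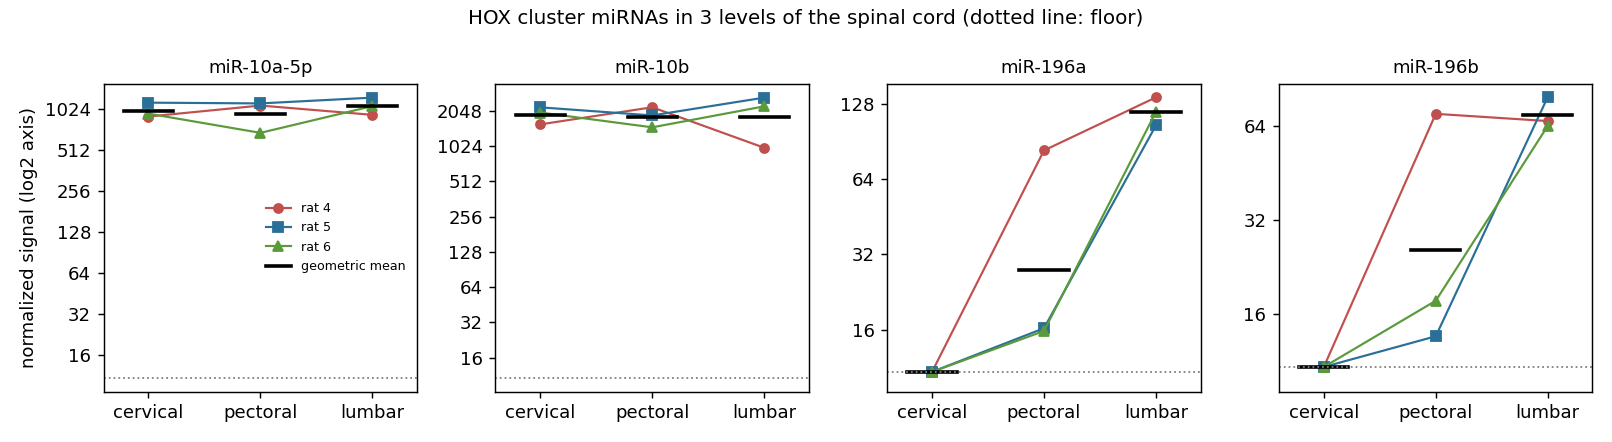
Normalized signal (log2 axis) of miR-10a-5p, miR-10b, miR-196a and miR-196b in cervical, pectoral and lumbar cord. Each colored line joins the 3 arrays of a rat, black bars are geometric means of 3 rats, and the dotted line is the floor of 10.8. The means of miR-10a-5p and miR-10b are nearly level, although the rat lines of miR-10b spread widely in lumbar cord. miR-196a and miR-196b leave the floor caudally, and rat 4 has the highest pectoral signals of both.

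The organs on either side of the cord give the range in which these values lie. miR-10a-5p had a mean of 42.2 ± 5.02 (SD, n = 3) in medulla oblongata, the most caudal part of the brain, against 1002 ± 128 in cervical cord. miR-10b was 40.4 ± 4.99 in medulla oblongata and 1909 ± 317 in cervical cord. The ranges of medulla and cervical cord did not overlap for either miRNA, and this difference between organs was described without a test.

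In cerebral cortex, hippocampus, thalamus and cerebellum the means of both miR-10 miRNAs were between 10.8 and 12.9. miR-196a and miR-196b were at the floor in these organs and in medulla, as in cervical cord. In ischial nerve, which leaves the lumbar cord for the hindlimb, miR-196a was 149 to 164 and miR-196b 90.7 to 115, each range above that of lumbar cord. Femoris muscle had the highest miR-196a of the 55 organs, 332 ± 14.4, and lumbar cord ranked in place 11.

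**Figure D4:**
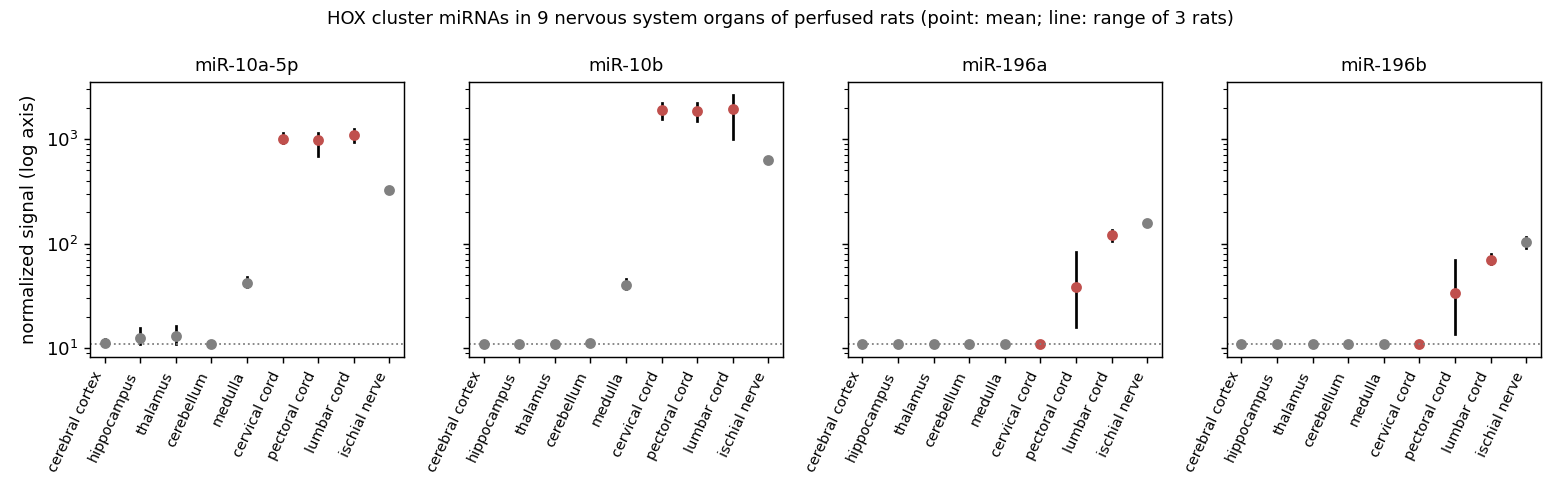
Normalized signal (log axis) of miR-10a-5p, miR-10b, miR-196a and miR-196b in 9 organs of the nervous system from cerebral cortex to ischial nerve. Points are means of 3 perfused rats (cord levels in red), vertical lines run from the lowest to the highest rat, and the dotted line is the floor. Every cervical array has miR-10a-5p and miR-10b at 907 or more against means of 42.2 and 40.4 in medulla, and miR-196a and miR-196b are at the floor in all organs from cortex to cervical cord.

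Several miRNAs of other cell types had higher signals caudal to the cervical level. miR-214 and miR-199a-5p, which are abundant in fibroblasts and other mesenchymal cells, miR-451 of red blood cells, miR-223 of myeloid leukocytes and miR-1 of striated muscle each had their lowest mean in cervical cord. All 5 had a higher signal in pectoral than in cervical cord in 3 of 3 rats and a higher one in lumbar than in cervical cord in 3 of 3 rats. They were picked with their values known, so this order describes them and is no test. Other tested miRNAs had it too, among them miR-130a, miR-140*, miR-142-3p, miR-497, miR-542-5p, miR-494_v15.0, miR-196a and miR-196b. How many of the 193 had it was not counted. By the stricter rule of no overlap, 9 of 193 (4.66%) were higher in pectoral than in cervical cord. By that rule 13 (6.74%) were higher in lumbar than in cervical cord. None passed the adjusted test. In bulk tissue, more cells of a type and more RNA per cell cannot be told apart.

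miR-214 was 18.5, 13.9 and 11.0 in cervical cord of rats 4, 5 and 6, then 45.9, 37.3 and 35.6 in pectoral cord, and 137, 25.0 and 64.4 in lumbar cord. Each pectoral and lumbar signal lay above every cervical one, while pectoral and lumbar cord overlapped because rat 5 went the other way. Its lumbar minus cervical difference was 2.10 ± 0.43 (SE, adjusted p = 0.141 in limma), or 1.66 (adjusted p = 0.162) without the lumbar array of rat 4. Leaving out rat 5 gave 2.72 (adjusted p = 0.0281). The cervical array of rat 6 did not call miR-214 above background. It was thus tested only through pectoral and lumbar cord, where it was higher, and these p-values describe the fit.

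miR-199a-5p, from the same transcript, was 13.1, 13.8 and 10.8 in cervical cord, 35.4, 38.2 and 27.0 in pectoral cord, and 114, 22.6 and 45.0 in lumbar cord. It was called above background on no cervical array and on all 3 lumbar arrays. Its lumbar minus cervical difference was 1.96 ± 0.47 (SE, adjusted p = 0.236 in limma), or 1.39 (adjusted p = 0.163) without the lumbar array of rat 4. It was tested only through its lumbar signals, so these p-values describe the fit. The size of the difference depends on cervical signals that were not above background.

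miR-451, the 1 tested of 3 listed erythroid miRNAs, was 20.4, 54.2 and 11.6 in cervical cord, 119, 219.6 and 105 in pectoral cord, and 838, 142 and 52.9 in lumbar cord. Pectoral signals all lay above cervical ones, and the lumbar array of rat 4 held by far the highest signal. The pectoral minus cervical difference was 2.58 ± 0.80 (SE, adjusted p = 0.966). Without the lumbar array of rat 4, which enters only the shared spread here, the same difference of 2.58 had an adjusted p of 0.00367, and without both arrays that stood apart 2.37 with 0.0147. The lumbar minus cervical difference was 2.98 (adjusted p = 0.323), or 1.78 (adjusted p = 0.0401) without the lumbar array of rat 4. The cervical array of rat 6 did not call miR-451 above background. It was thus tested only through pectoral and lumbar cord, where it was higher, and its p-values describe the fit.

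miR-223 was 51.9, 66.9 and 54.3 in cervical cord, 104, 133 and 109.6 in pectoral cord, and 485, 91.7 and 101 in lumbar cord. Cervical signals lay below all others, and the lumbar array of rat 4 again held the highest. Its pectoral minus cervical difference was 1.00, with an adjusted p of 0.966, and 0.026 without the lumbar array of rat 4. Without both arrays the difference was 1.06 (adjusted p = 0.0841). miR-142-3p, another leukocyte miRNA, was 45.0 to 97.4 in cervical cord and 64.4 to 219 in lumbar cord, and the levels overlapped. Its lumbar minus cervical difference was 0.93, or 0.24 without the lumbar array of rat 4. miR-150 and miR-146a, of lymphocytes and activated immune cells, differed by -0.23 and 0.22 between lumbar and cervical cord, and by -0.035 and 0.027 without that array.

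miR-1 was 24.7, 49.3 and 19.2 in cervical cord, 52.0, 135 and 53.6 in pectoral cord, and 56.5, 71.3 and 156 in lumbar cord. Here the highest array was the lumbar one of rat 6, and the cervical array of rat 6 did not call miR-1 above background. miR-133b, another muscle miRNA, was 307 to 424 in cervical cord and 158 to 515 in lumbar cord, a difference of -0.15 that was 0.31 without the lumbar array of rat 4, and its pectoral minus cervical difference was -0.13. The skeletal muscle miRNA miR-206 was detected on 2 arrays and reached 19.8 at most. Of the 7 listed muscle miRNAs 5 were detected on some array, 2 were tested and 0 were called.

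**Figure D5:**
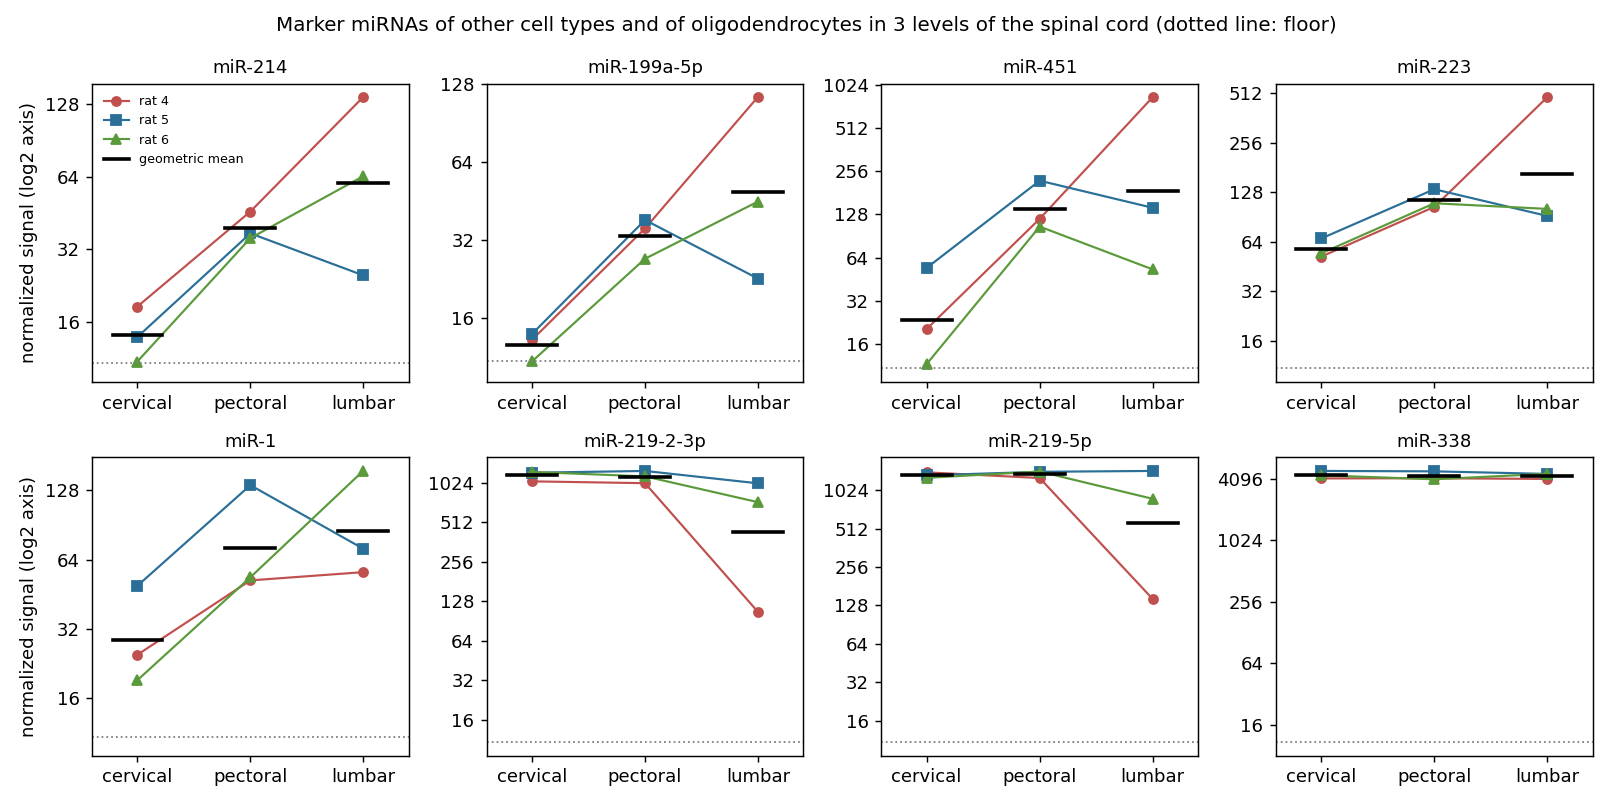
Normalized signal (log2 axis) of miRNAs typical of other cell types (miR-214, miR-199a-5p, miR-451, miR-223 and miR-1) and of oligodendrocytes (miR-219-2-3p, miR-219-5p and miR-338) in the 3 cord levels. Each colored line is a rat, black bars are geometric means and the dotted line is the floor. The first 5 are lowest in cervical cord, rat 5 turns down from pectoral to lumbar cord, and rat 4 has the low miR-219 signals of its lumbar array.

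The fibroblast and smooth muscle list as a whole had 7 members, all detected on some array, and 6 tested. From cervical to lumbar cord 0 of the 6 were called. Of the 6, miR-199a-5p was tested only through its lumbar signals and miR-214 only through pectoral and lumbar cord, so no median is given. The summed signal of the list was 822 to 1008 in cervical cord, 753 to 1309 in pectoral cord and 1378 to 1721 in lumbar cord. Its member miR-143 differed by 0.50 between lumbar and cervical cord, higher in 3 of 3 rats without overlap, miR-140 by -0.04, miR-140* by 0.19 and miR-199a-3p by 1.79. On leaving out the lumbar array of rat 4, these were 0.69, 0.10, 0.16 and 1.38. The leukocyte list of 5 had a median of 0.58 over 4 tested members, against -0.19 over all miRNAs, and 0 calls, and a summed signal of 460 to 615 in cervical cord and 549 to 1065 in lumbar cord. Its median was 0.14 without the lumbar array of rat 4, where that over all miRNAs was -0.03.

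Between pectoral and lumbar cord these miRNAs and miR-196a had the same direction in some rats and not in others. In rat 4, lumbar minus pectoral was 0.71 for miR-196a, 1.58 for miR-214, 1.69 for miR-199a-5p and 1.62 for miR-199a-3p. It was 2.81 for miR-451, 2.22 for miR-223, 0.12 for miR-1 and -0.17 for miR-143 in that rat. In rat 5, miR-214 went from 37.3 in pectoral to 25.0 in lumbar cord, miR-199a-5p from 38.2 to 22.6, miR-451 from 219.6 to 142 and miR-1 from 135 to 71.3. Between the same arrays miR-143 was higher by 0.34 on the log2 scale, and miR-196a went from 16.2 to 105. In rat 6 miR-196a went from 15.8 to 119. There, lumbar minus pectoral was 0.85 for miR-214, 0.74 for miR-199a-5p, 1.73 for miR-199a-3p and 1.54 for miR-1, and it was -0.99 for miR-451 and -0.11 for miR-223. In lumbar cord of rat 5, miR-196a was 105 against 119 and 136 in the other rats, and miR-214, miR-199a-5p and miR-199a-3p were also lower there than on the other 2 lumbar arrays. Ischial nerve had mean signals of 286 for miR-214 and 266 for miR-199a-5p as well as its miR-196, and nerve roots run along the lumbar cord. The part of nerve, connective tissue or blood in the lumbar signals was not tested.

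The oligodendrocyte list had 5 members, of which 4 were detected on some cord array, 3 were tested and 0 were called in any pair. From cervical to lumbar cord their median difference was -1.24, against -0.19 over all miRNAs, and -0.26 without the lumbar array of rat 4, against -0.03. miR-219-2-3p was 1045, 1216 and 1233 in cervical cord of rats 4, 5 and 6, then 1013, 1255 and 1141 in pectoral cord, and 106, 1010 and 726 in lumbar cord. Each lumbar signal lay below every cervical and every pectoral one, and that of rat 4 was far below. Its lumbar minus cervical difference was -1.44 ± 0.61 (SE, adjusted p = 0.462 in limma), and without the lumbar array of rat 4 it was -0.52 (adjusted p = 0.365).

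miR-219-5p, made from the opposite hairpin arm, was 1413, 1338 and 1280 in cervical cord, 1276, 1428 and 1435 in pectoral cord, and 144, 1450 and 877 in lumbar cord. In rat 5 it had its highest signal in lumbar cord, so the levels overlapped. The lumbar minus cervical difference was -1.24 ± 0.66 (adjusted p = 0.462), and -0.26 without the lumbar array of rat 4.

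miR-338 was level along the cord, with 4120, 4875 and 4416 in cervical cord, 4134, 4831 and 4041 in pectoral cord, and 4072, 4560 and 4572 in lumbar cord. The lumbar minus cervical difference was -0.02, with a 95% interval from -0.38 to 0.33. On the lumbar array of rat 4, then, miR-338 stood among the other arrays while both miR-219 arms were low. Ischial nerve, whose myelin is made by Schwann cells, had a mean miR-338 of 2601, with both miR-219 arms at the floor. miR-338*, its passenger strand, was called above background on the pectoral array of rat 4 alone, and miR-219-1-3p on none.

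The neuronal miRNAs had lower mean signals in lumbar than in cervical cord, and their summed signal on the lumbar array of rat 4 was 3739, against 9167 to 14156 on the other 8 arrays. All 15 tested members of 18 had a negative lumbar minus cervical difference, with a median of -0.65 against -0.19 over all miRNAs and 0 calls. Of all 193, 137 had a negative one. Without the lumbar array of rat 4 the count was 13 of 15 and the median -0.16, against -0.03. That array and the pectoral array of rat 6 each detected 14 of the 18, fewer than were tested. Some members may thus have been tested only through cervical cord, where the means were higher, so the counts and medians of this list are a description. miR-124 was 1770, 2353 and 2019 in cervical cord and 653, 2635 and 1574 in lumbar cord of rats 4, 5 and 6. Rat 5 thus had its highest miR-124 in lumbar cord. miR-9 differed by -0.65 and miR-128 by -0.69 between lumbar and cervical cord, neither past the test, and by -0.16 and -0.32 without that array.

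From cervical to pectoral cord all 15 neuronal miRNAs had a negative difference too, where 129 of all 193 did, with a median of -0.21 against -0.09, and 0 calls. Removing the pectoral array of rat 6 left 13 of 15 and a median of -0.14, against -0.02, and removing both arrays that stood apart gave 15 of 15 and -0.27, against -0.08. The imprinted Dlk1-Dio3 cluster, a large maternal miRNA cluster used in neurons, had 33 of 56 members tested, of which 31 were lower in lumbar than in cervical cord, where 137 of all 193 were, with a median of -0.42 against -0.19 and 0 calls. It was 17 of 33, with a median of -0.0070 against -0.03, without the lumbar array of rat 4. Its members miR-434, miR-127, miR-329 and miR-136 differed by -0.46, -0.47, -0.47 and -0.30, and by 0.053, -0.018, -0.043 and 0.19 without that array. Of its 56 members, 30 were detected on that array, 26 on the pectoral array of rat 6 and 33 to 40 on the cervical arrays. Some may thus have been tested only through cervical cord, so the counts and medians of this cluster are a description too.

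A few other miRNAs had low unadjusted p-values between pectoral and lumbar cord. The lowest after miR-196a was that of miR-100, whose sequence resembles that of miR-10a without sharing its seed.
miR-100-5p: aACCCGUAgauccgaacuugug
It was 839.8, 1026 and 894 in pectoral cord of rats 4, 5 and 6 and 492, 784 and 605 in lumbar cord, with cervical signals of 774, 904 and 861. Lumbar signals lay below all pectoral ones, and the lumbar minus pectoral difference was -0.57 ± 0.16 (SE, unadjusted p = 0.0105, adjusted p = 0.765 in limma). The exact permutation p over the 3 levels was 0.0278, the smallest possible, or 0.67 adjusted over the 193 miRNAs.

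miR-146b, which is induced in inflammation, was 135, 112 and 86.5 in pectoral cord and 154, 155 and 179 in lumbar cord. The levels did not overlap, and the difference was 0.57 ± 0.21 (unadjusted p = 0.034, adjusted p = 0.765). miR-365 was 110.4, 152 and 85.8 in pectoral cord and 62.2, 125 and 71.3 in lumbar cord, lower in 3 of 3 rats with overlapping levels.

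miR-183 and miR-96 come from a cluster used in sensory neurons and had low signals. miR-183 was 62.7, 89.5 and 49.1 in cervical cord, 58.8, 36.7 and 46.1 in pectoral cord, and 67.6, 38.0 and 17.1 in lumbar cord. It was lower in lumbar than in cervical cord in rats 5 and 6 and higher in rat 4. miR-96 was 51.5 to 118 in cervical cord and 17.8 to 64.0 in lumbar cord, and differed by -0.97 ± 0.38 between lumbar and cervical cord (unadjusted p = 0.0395, adjusted p = 0.462), or by -1.36 (adjusted p = 0.162) without the lumbar array of rat 4.

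The 5 miRNAs with a lower signal at each more caudal level in every rat were miR-101a, miR-148b-3p, miR-186, miR-325-3p and miR-340-5p. They were named after their values were seen. miR-340-5p was 52.1, 79.7 and 56.2 in cervical cord, 48.9, 70.4 and 46.5 in pectoral cord, and 16.8, 66.4 and 39.7 in lumbar cord, with levels that overlapped between rats. The difference between lumbar and cervical cord was -0.80 (adjusted p = 0.462), or -0.36 without the lumbar array of rat 4.

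Counted by overlap alone, 20 of 193 miRNAs (10.4%) had no overlap between cervical and pectoral cord, with 9 higher (4.66%) and 11 lower (5.7%) in pectoral cord. Between pectoral and lumbar cord there were 8 (4.15%), with 4 higher (2.07%) and 4 lower (2.07%) in lumbar cord. Between cervical and lumbar cord there were 20 (10.4%), with 13 higher (6.74%) and 7 lower (3.63%) in lumbar cord. miR-196a was the only one without overlap in all 3 pairs.

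The endothelial and ependymal miRNAs overlapped between all levels. The endothelial miR-126 was 629 to 877 in cervical cord, 426 to 798 in pectoral cord and 598 to 913 in lumbar cord, and its passenger strand miR-126* was between 14.2 and 60.1 on the 9 arrays. miR-34b and miR-34c, of ciliated cells such as the ependyma of the central canal, differed by -0.10 and 0.03 between lumbar and cervical cord, and by 0.054 and 0.15 without the lumbar array of rat 4. The choroid plexus miRNA miR-204 was lower in pectoral cord in 3 of 3 rats, with 859, 1003 and 772 in cervical cord, 809, 641 and 464 in pectoral cord and 845, 812 and 1025 in lumbar cord (pectoral minus cervical -0.49, adjusted p = 0.966, or -0.27 without the pectoral array of rat 6). The let-7 family, which most tissues express, had 8 of 8 members tested, differences between lumbar and cervical cord from -0.25 to 0.02, and 0 calls.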

How the data were processed

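Total RNA of each tissue was labelled with cyanine 3 and hybridized to a single-color Agilent array. The authors deposited scanner intensity values made with Agilent Feature Extraction 10.7.3 and a table of scaled intensity. On the cord arrays that table equalled the scanner software's total gene signal times 1 factor per array. From the deposited intensity values, background-subtracted signals without outlier spots were averaged over spots and probes, divided by the 75th percentile of the array, taken from 37 miRNAs that all 180 arrays detected, multiplied by the mean of those percentiles (2118), set to a floor of 10.8 and taken to log2. Detected means that the scanner software called more than 50% of a miRNA's spots above background. The number of arrays limits the precision.

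limma 3.58.1 (R 4.3.3) was fitted to the 9 cord arrays with level and rat as terms, two-sided, with Benjamini-Hochberg adjustment and a threshold of 0.05. The fit was also run on simulated data, of which no result is given here. The pairing comes from the rat number in the titles, with the conflict for rat 5 stated above. Deviations from level means had a mean correlation of 0.212 within a rat and -0.107 between rats. These deviations cancel out over the rats at each level, so the value between rats largely follows from the other. Rat and slide coincide, so neither value can check the pairing by title. The miRNAs named were all HOX cluster and oligodendrocyte members, the 5 with the lowest p in each pair, the 10 brightest, and the 4 brightest tested of each other list. Members and lists were chosen with earlier results of these data known. 18 planned and 3 added alternatives were run.

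All 13 sequences looked for were found in RefSeq by arm. The array's own names are older and lack the arm for most.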

Additional observations from a re-analysis of the deposited data

How the results depend on the processing

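Across 21 alternatives (3 of them chosen after the data were seen) the count of miRNAs called by limma, 0 between each pair of levels, stayed within 0 to 6. Between cervical and lumbar cord it was 2 when arrays were scaled by cord-detected miRNAs, 2 when scaled by the percentile of all miRNAs, 1 with the scanner software's total gene signal and 1 with the authors' table. It was 1 without the replicate block, 2 with rat as a random replicate block (correlation 0.249) and 6 with a replicate block over 30 nervous system arrays (miR-196a, miR-196b, miR-451, miR-214 and miR-199a-5p higher and miR-3584-5p lower in lumbar cord). Between cervical and pectoral cord it was 1 with the authors' table (miR-196a) and 1 over the 30 arrays (miR-451), and between pectoral and lumbar cord 2 over the 30 arrays (miR-196a and miR-196b). The F test gave 1 with the authors' table, 1 with the random block and 3 over the 30 arrays, and pectoral cord against the mean of the others 1 with the authors' table. Leaving out a rat or an array gave 0 to 2 calls in each of the 3 pairs, 0 to 3 in the F test and 0 to 1 for pectoral cord against the mean of the others. Between cervical and lumbar cord the calls were miR-196a and miR-196b without rat 4, miR-214 and miR-199a-3p without rat 5, and miR-196a and miR-451 without the lumbar array of rat 4.

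miR-196a was higher in lumbar than in cervical cord under each of the 20 alternatives that tested it. A filter for detection on all 9 cord arrays left it out, as it did miR-196b, miR-214, miR-451, miR-199a-5p and miR-1. Its log2 difference was lowest, 1.46, with a floor 4 times as high and highest, 11.01, with the authors' table, which has no floor. Its adjusted p ranged from 1.69e-07 over the 30 arrays to 0.702 without rat 6. Of 31 single differences, 21 turned sign under no alternative that tested them, although pectoral minus cervical of miR-199a-5p was 0 with the floor 4 times as high, where both levels lay at it. Each of the 10 that turned was within 0.19 of 0 in the reported fit. With scaling by cord-detected miRNAs, pectoral minus cervical was 0.0088 for miR-10a-5p, 0.028 for miR-10b, 0.045 for miR-219-2-3p and 0.037 for miR-338, and lumbar minus cervical 0.039 for miR-338. With scaling by all miRNAs, miR-10b was 0.077 from pectoral and 0.022 from cervical to lumbar cord, and miR-338 0.072 from cervical to lumbar cord. Quantile normalization gave miR-10b 0.011, 0.052 and 0.063 and miR-338 0.118, -0.020 and 0.098 for pectoral minus cervical, lumbar minus pectoral and lumbar minus cervical. The authors' table gave miR-10b 0.114 from pectoral and 0.076 from cervical to lumbar cord, and miR-338 0.125 from cervical to lumbar cord, where it moved the median of all tested miRNAs by 0.15. Leaving out a rat or an array, pectoral minus cervical ranged from -0.24 to 0.14 for miR-10a-5p, from -0.32 to 0.19 for miR-10b, from -0.079 to 0.17 for miR-219-2-3p, from -0.11 to 0.15 for miR-219-5p and from -0.071 to 0.015 for miR-338. Lumbar minus pectoral ranged from -0.043 to 0.40 for miR-10a-5p, from -0.32 to 0.55 for miR-10b and from -0.053 to 0.078 for miR-338, and lumbar minus cervical from -0.24 to 0.36 for miR-10b and from -0.057 to 0.017 for miR-338. The cause of these changes was not tested. Signal near background limits the cervical values. miR-196a and miR-196b were at the floor on all 3 arrays, so their differences are counted from it. miR-199a-5p was detected on 0 of 3 arrays, and miR-214, miR-451 and miR-1 on 2 of 3.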
